A study of Mus musculus with 4 samples.

Results

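B-lineage cells made up 230 of the 33042 cells kept from sorted mouse bone marrow progenitors that lacked lineage markers and carried Sca-1 and Kit, 0.696% of the total. A cell was counted as B-lineage when it held a unique molecular identifier (UMI, 1 per captured transcript) of at least 3 of the 7 genes Ebf1, Cd79a, Vpreb1, Vpreb3, Igll1, Pax5 and Blnk, with at least 1 of Cd79a, Vpreb3 and Pax5 among them. Expression of these genes in these cells therefore chose the members, and their levels are given as a description. The label of B-lineage progenitors held for most members, but 39 of them expressed immunoglobulin light chain without surrogate light chain and 1 was rich in Jchain. The set is therefore called B-lineage cells here.

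The cells came from 2 male Tppp3CreER LSLTdTomato mice, treated with tamoxifen on postnatal days 0 and 3 and studied at 3 months. CreER, a Cre recombinase that tamoxifen activates, is expressed from Tppp3, and tdTomato marks cells in which the reporter recombined and their descendants. Each mouse gave 1 tube per gate, tdTomato-positive or tdTomato-negative, and both gates carried the same alleles and the same tamoxifen. The 4 tubes were marked with hashtag antibodies and run with both 10x kits, the newer GEM-X and the older v3.1, so each chemistry held all 4 tubes in 1 library.

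After the cell filters, 18294 GEM-X cells and 14748 v3.1 cells carried 1 dominant hashtag, and 122 and 108 of them were B-lineage. No barcode was shared between the libraries. B-lineage cells had a median of 8288.5 UMIs in GEM-X and 10114 in v3.1, against 9291 and 7621 in all other cells. Summed over a tube, the members held between 169538 UMIs (mouse 1 positive) and 1030975 UMIs (mouse 1 negative). The 2 mice are the biological replicates, and p-values rest on the spread between tubes. Barcodes that met the gene rule but failed the hashtag rule numbered 15 in GEM-X and 24 in v3.1 and were not used. Scrublet, which scores likely doublets, called no cell at its automatic threshold, so the 5% of barcodes with the highest scores were instead treated as candidates. Those included 9 GEM-X and 6 v3.1 B-lineage cells (7.38% and 5.56%), against 2.21% and 2.01% of all cells kept.

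B cells arise in bone marrow from lymphoid progenitors that express the receptors encoded by Flt3 and Il7r. The transcription factors E2A (Tcf3), EBF1 and PAX5 commit them to the lineage, RAG1 and RAG2 cut the immunoglobulin genes, and terminal transferase (Dntt) adds bases at the joins. The heavy chain first pairs with a surrogate light chain, built from the VpreB and lambda-5 (Igll1) proteins, and later with a rearranged kappa or lambda light chain.

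The rule required at least 3 of the 7 genes in every member, and most members held more. All 7 were detected in 147 members, 6 in 14, 5 in 32, 4 in 25 and 3 in 12. Members with all 7 held a median of 132 UMIs of these genes (range 25 to 600). At the edge of the rule, the 12 members with 3 genes held a median of 22.5 UMIs (3 to 66), and the 140 cells outside it with 2 genes held a median of 3 (2 to 59). A further 7 cells had 3 or more of the genes but none of the required 3, and 1964 cells had 1.

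Ebf1, which encodes the factor that specifies the lineage (chr11:44617317-45008091, plus strand, mm10), was the most abundant of the 7. It was detected in 228 of 230 members with a median of 44 UMIs per cell and as many as 418. Blnk, an adaptor of the pre-B-cell receptor (chr19:40928927-40994535), was detected in 223 members. Cd79a, the signalling chain of the receptor (chr7:24897381-24902197), was detected in 222. Pax5, the commitment factor (chr4:44524757-44710487), was found in 205 members and Vpreb3 (chr10:75943057-75949657) in 200. Igll1 was found in 166 members and Vpreb1 in 165. Both map to the same stretch of chromosome 16, Igll1 at chr16:16860671-16863985 and Vpreb1 at chr16:16868403-16870843. Among these chosen cells, each of the 7 genes was detected in most, and the surrogate light chain genes were missing from the largest number.

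The rule chose the members on these genes, so detection inside and outside it is a description. Cells without Dntt outside the rule, which should lack these genes, held few counts of them. How much of that was free RNA was not tested. Ebf1 had a UMI in 99.2% of GEM-X and 99.1% of v3.1 members, against 0.383% and 0.719% of those cells. Vpreb1 had the highest background, 1.55% in GEM-X and 2.29% in v3.1, at a median of 1 UMI where detected. In members it was found in 73.8% and 69.4%, at a median of 10 and 12 UMIs. Pax5 was at 0.0627% and 0.0771% outside the rule, against 91.8% and 86.1% of members. Median depths were 8288.5 and 10114 UMIs in members, against 8871 and 7208 in those cells.

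Vpreb2, a near copy of Vpreb1 that also encodes a VpreB protein (chr16:17980428-17981273), was not part of the rule. It had 344 UMIs in 117 members, against 2138 UMIs of Vpreb1 in 165 members, and 110 members held both. The transcripts Vpreb1-201 and Vpreb2-201 match at 739 of 759 aligned bases (97.4%), so reads that fit both genes may have been dropped or split by the counting. Their separate levels are uncertain for that reason. A stretch of DNA near the starts of the genes is as alike, and is shown because both copies were detected together in the same cells. Counted from the starts that the RefSeq table uses (GRCm38.p6, base 16869255 for Vpreb1 and 17980565 for Vpreb2), it covers the 106 bases directly before Vpreb1 and bases 250 to 145 before Vpreb2. Only the 250 bases before each start were compared, without gaps. The stretch reaches an edge of both windows, so its length was set by the search, and it was not followed further. The GENCODE positions above start elsewhere, so in that annotation the first stretch lies inside the Vpreb1 gene and the second ends just before Vpreb2. They match at 104 of 106 bases, and capitals mark the 2 bases that differ.
Vpreb1, chr16:16869256-16869361, minus strand: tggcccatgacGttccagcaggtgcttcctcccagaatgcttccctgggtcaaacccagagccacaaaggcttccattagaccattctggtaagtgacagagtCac
Vpreb2, chr16:17980315-17980420, plus strand: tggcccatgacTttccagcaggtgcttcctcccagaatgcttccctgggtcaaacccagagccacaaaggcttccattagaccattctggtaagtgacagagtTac

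B-lineage cells were set beside 3 groups of cells outside the rule. These were 820 cells with both a Dntt and an Il7r UMI, 5960 with Dntt and no Il7r, and 26032 with no Dntt UMI. Counts were summed per tube and scaled to the summed UMIs of that tube and cell group (CPM). Because the members were chosen by expression, these comparisons carry no test. A gene was counted as higher or lower when the 4 tubes of B-lineage cells did not overlap the 4 tubes of the other cells and the mean log2 ratio (CPM plus 1) was at least 1 in size. Against the Dntt and Il7r cells this held for 367 of 9459 genes higher (3.88%) and 554 lower (5.86%). Against the cells with Dntt alone it held for 5.05% and 10.3% of genes, and against the cells without Dntt for 6.09% and 12.9%.

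The list of 24 B-cell specification factors holds Ebf1 and Pax5, which chose the members. Of the other 22 factors, 21 were measured, and 10 were higher and none was lower in B-lineage cells than in the Dntt and Il7r cells. Their median log2 ratio was 0.97, beside -0.07 over all genes, of which 3.88% were higher and 5.86% lower. Ebf1 stood at 5792, 6626, 3620 and 6682 CPM in the mouse 1 positive, mouse 2 positive, mouse 1 negative and mouse 2 negative members, against 111, 37.3, 76.6 and 71.4 CPM in the Dntt and Il7r cells of the same tubes. Ebf1 in the Dntt and Il7r cells was in turn above its mean of 1.35 CPM in the cells with Dntt alone. Pax5 averaged 623 ± 161 CPM in members and 0.160 ± 0.245 in the Dntt and Il7r cells (SD over 4 tubes, here and below).

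Lef1, a factor of the Wnt pathway needed by early B cells, had 832, 650, 329 and 591 CPM in members, against 0, 1.86, 0.493 and 1.26 CPM in the Dntt and Il7r cells. Foxo1, which drives Rag expression in mouse B-cell precursors, averaged 209 ± 44.4 CPM in members and 17.3 ± 3.76 in the Dntt and Il7r cells. Tcf3 averaged 254 ± 45 against 100 ± 11.8 CPM. Bach2, a repressor active in the pre-B-cell stage, averaged 962 ± 471 against 214 ± 34.4 CPM. Id3, an inhibitor of E proteins, averaged 110 ± 47.2 against 1.25 ± 0.886 CPM. Factors shared with other blood progenitors were closer, as for Ikzf1 at 554 ± 131 against 743 ± 14.0 CPM and Runx1 at 807 ± 57.4 against 782 ± 61.1 CPM.

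The pre-B-cell and B-cell receptor list of 21 genes holds 5 genes of the rule. Of the other 16, 11 were higher than in the Dntt and Il7r cells, none was lower, and the median log2 ratio was 3.61. Over all genes, 3.88% were higher and 5.86% lower. Cd79b, the partner of Cd79a, averaged 363 ± 144 CPM in members and 24.2 ± 3.82 in the Dntt and Il7r cells. Blk, a Src-family kinase, averaged 60.7 ± 11.2 against 3.28 ± 1.15 CPM. Transcripts of the mu heavy chain constant region (Ighm) averaged 1016 ± 238 CPM in members, 428 ± 29.1 in the Dntt and Il7r cells, 195 in cells with Dntt alone and 39.7 in cells without Dntt. Ighm, which the rule did not use, was highest in members and lowest in the cells without Dntt.

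Of the V(D)J recombination list, 4 of 12 genes were higher than in the Dntt and Il7r cells and none was lower. Over all genes, 3.88% were higher and 5.86% lower. Rag1 (chr2:101638282-101649501) had 265, 176, 150 and 172 CPM in members, against 16.6, 22.4, 12.8 and 14.5 CPM in the Dntt and Il7r cells. Rag2, its partner and neighbour, had 112, 73.7, 94.1 and 124 CPM against 28.5, 26.1, 33.1 and 25.9 CPM. Neither gene's tubes overlapped between the groups. Lig4, the ligase that closes the joins, averaged 16.6 ± 10.1 against 2.48 ± 1.5 CPM. Dntt itself averaged 1140 ± 222 CPM in members and 1435 ± 262 in the Dntt and Il7r cells, where its detection defined the group.

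Receptors and survival genes differed in both directions. Il7r averaged 508 ± 65.8 CPM in members and 236 ± 30.5 in the Dntt and Il7r cells. Flt3, the receptor of earlier lymphoid progenitors, had 236, 64.1, 344 and 123 CPM in members, against 845, 777, 776 and 792 CPM. All 4 member tubes lay below all 4 of the Dntt and Il7r cells. Bcl2, a survival gene, averaged 104 ± 38.7 against 485 ± 112 CPM, while its relative Bcl2l1, which encodes BCL-XL, averaged 65.5 ± 18 against 13.5 ± 2.94 CPM. Satb1, a chromatin organiser of lymphoid progenitors, averaged 214 ± 61.0 against 641 ± 39.2 CPM. Notch1, the receptor that directs T-cell fate, averaged 50.9 ± 15.2 against 161 ± 6.03 CPM.

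**Figure D1:**
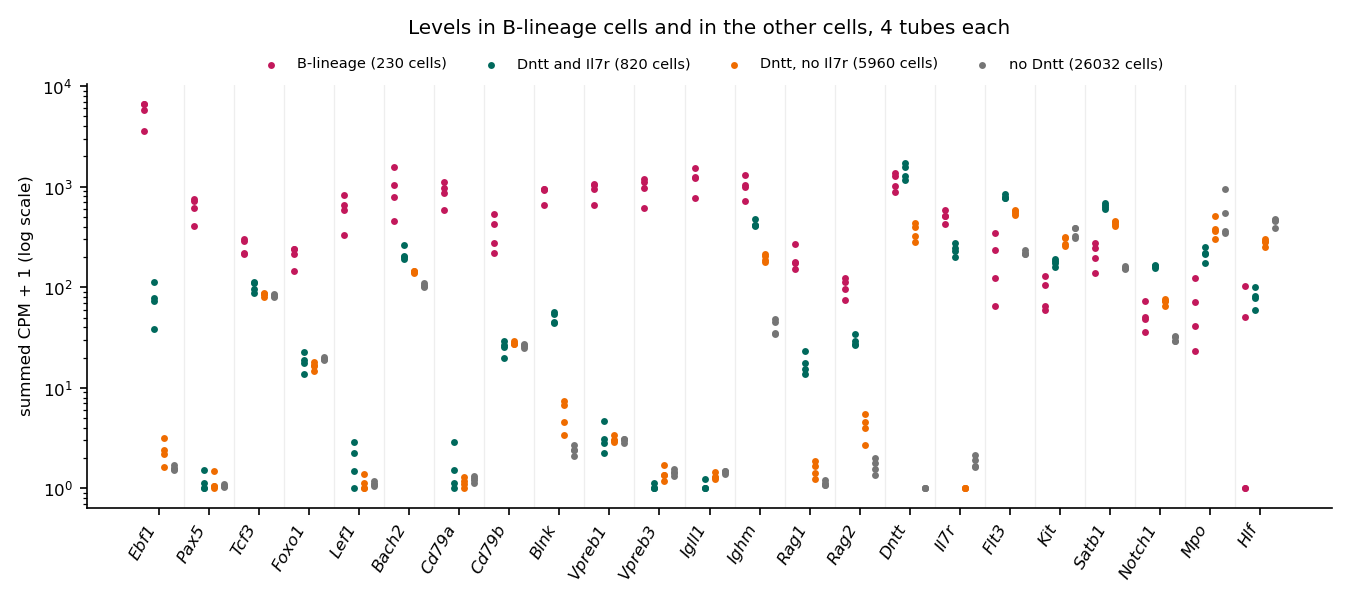
Summed CPM plus 1 (log axis) of 23 genes in B-lineage cells and in the 3 groups of cells outside the rule; each point is 1 of 4 tubes. The genes of the rule, Lef1 and Rag1 sit above every other group, Dntt overlaps the Dntt and Il7r cells, and Flt3, Kit, Satb1 and Notch1 sit below the Dntt and Il7r cells.

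By the size of the ratio, the genes furthest above the Dntt and Il7r cells included Cd79a, Vpreb1, Vpreb3, Igll1 and Pax5. These are genes of the rule, so the choice of members set their place. Genes outside the rule included Igkc, Lef1, Cecr2, Akap12, Gfra2, Pou2af1, Ighg2b, Cplx2 and Chst3. Pou2af1, a B-cell coactivator of octamer factors, had 350 UMIs in members and none in the Dntt and Il7r cells. Set against a floor of 3 counts over that group, this is at least 561-fold higher in members. Gfra2, a receptor of GDNF-family ligands, was at least 685-fold higher on the same floor. Cecr2, a bromodomain protein of chromatin remodelling, averaged 613 ± 181 against 1.74 ± 2.59 CPM. Igkc averaged 1890 CPM in members, but 6552 of its 7206 UMIs lay in a single cell.

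The genes furthest below were Trbc1, Ctnnd2, Wfdc17, Chl1, Gcnt2, Glis3, Sema3d, Tox, Tyrobp, Nos1ap, Il1r1, Ccser1, Slc22a3, Ncf1 and Rnf150. Trbc1, a T-cell receptor beta constant region, had 0, 0, 0.970 and 0 CPM in members, against 19.7, 65.2, 20.6 and 111 CPM in the Dntt and Il7r cells. Tox, a factor of T-cell development, averaged 30.8 ± 22.6 against 323 ± 119 CPM. Tyrobp, an adaptor of innate receptors, averaged 11 ± 9.66 against 82.9 ± 30.6 CPM. Of the 10 genes on the T and innate lymphoid marker list, Cd3e, Cd3g, Cd3d, Bcl11b and Il2rb were at 0 in members. The other 5 had UMIs, and Nkg7 averaged 48.9 CPM. The list summed to between 40.4 and 99.9 CPM over the member tubes, against 191 to 230 CPM in cells without Dntt.

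Transcripts of the sorted antigens were low in members. Kit had 59.0, 64.1, 129 and 103 CPM in members, against 159, 183, 189 and 174 CPM in the Dntt and Il7r cells and a mean of 350 CPM in cells without Dntt. A Kit UMI was found in 110 of 230 members (47.8%). After thinning every cell to 3000 UMIs, the share was 25.3% of 186 members, against 38.4% of 815 Dntt and Il7r cells. Ly6a, which encodes Sca-1, averaged 32.9 ± 29.4 CPM in members and 44.0 ± 8.62 in the Dntt and Il7r cells, and these ranges overlapped. The sort selected on protein, which was not measured per cell.

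Markers of other cell types varied in the members. The 6 plasmacytoid dendritic genes summed to 559 to 678 CPM over the 4 member tubes, against 346 to 382 CPM in cells without Dntt. Most of that was Tcf4, an E-protein factor, at 430 ± 74.7 CPM in members. The 10 stem cell genes summed to 82.6 and 76.9 CPM in positive members and to 581 and 320 CPM in negative members. Siglech of plasmacytoid dendritic cells, Vwf and Hoxb5 of stem cells, Gp1bb of megakaryocytes, Cebpe of granulocyte precursors, Ms4a2 of mast cells and Ltf of neutrophils were at 0. The 9 granulocyte and monocyte genes summed to between 60.9 and 266 CPM over the 4 member tubes, against 1065 to 3168 CPM in cells without Dntt. Of the erythroid list, Car1 had 71.8 CPM in the mouse 1 negative members and 0, 0 and 0.984 CPM in the members of the other 3 tubes. Tppp3, whose promoter drives the Cre, had no UMI in the 230 members. Counted as independent cells, they allow a share of cells with a UMI of up to 1.30%.

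Genes of the G2 and M phases were high in the members. All 19 on the list were higher than in cells without Dntt (median log2 ratio 1.56), and 3 of 19 were higher than in the Dntt and Il7r cells. Over all genes, 6.09% and 3.88% were higher in these comparisons. Mki67, a marker of cycling cells, averaged 1229 ± 175 CPM in members, 814 ± 80.3 in the Dntt and Il7r cells and 409 in cells without Dntt. Of the G1/S list, 1 of 15 genes, the ribonucleotide reductase gene Rrm2, was higher than in the Dntt and Il7r cells. That is near the 3.88% over all genes and says nothing about the list. Both Mki67 and Top2a had a UMI in 128 of 230 members (55.7%), against 25.4% of the cells without Dntt. Members with both had a median of 15783.5 UMIs and those without a median of 3300, and the part of depth in that share was not tested.

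The members fell into groups of unlike stage, which were defined after seeing these values and carry no test. Cells with a Vpreb1 or Igll1 UMI numbered 173 (75.2%). A further 39 (17.0%) had a kappa or lambda constant-region UMI and no surrogate light chain. There were 15 cells (6.52%) with Dntt and neither light chain type, 1 cell rich in Jchain and 2 with none of these.

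The 15 cells with Dntt alone had the highest Flt3 and Dntt, though a Dntt UMI was required of them only, and little Pax5. Flt3 stood at 672 CPM in them, against 174 CPM in the surrogate light chain cells and 122 CPM in the light chain cells. Dntt stood at 2115, 1155 and 0 CPM in the same order, and Ebf1 at 1465, 5974 and 4389 CPM. Pax5 stood at 87.2, 579 and 851 CPM. These cells had a median of 14500 UMIs.

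The 173 surrogate light chain cells had the highest levels of Rag1, Lef1 and Mki67. Lef1 stood at 613 CPM in them, against 76.0 CPM in the light chain cells and 34.9 CPM in the cells with Dntt alone. Mki67 stood at 1353 CPM, against 411 and 754 CPM, and Rag1 at 191 CPM, against 71.0 and 95.9 CPM. Cd79a stood at 820 CPM, against 1282 and 109 CPM.

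The 39 light chain cells carried genes of later B cells and had a median of only 3139 UMIs. Ms4a1, which encodes CD20, stood at 689 CPM in them, against 2.92 CPM in the surrogate light chain cells and 0 in the cells with Dntt alone. Cd74, the invariant chain of antigen presentation, stood at 2129 CPM, against 24.3 and 21.8 CPM. Bank1, a B-cell adaptor, stood at 603 CPM, against 19.4 and 13.1 CPM, and Ikzf3, a factor of later B-cell stages, at 613 CPM, against 11.7 and 0 CPM. Hlf in the light chain cells was 213 CPM, against 43.8 CPM in the surrogate light chain cells, but it was detected in 5 of 39 and 26 of 173 of these cells (12.8% and 15%). The cell rich in Jchain, from the mouse 2 negative tube in v3.1, held 1017 of the 1019 Jchain UMIs of all members. It also held 74710 CPM of Igha, the constant region of IgA.

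**Figure D2:**
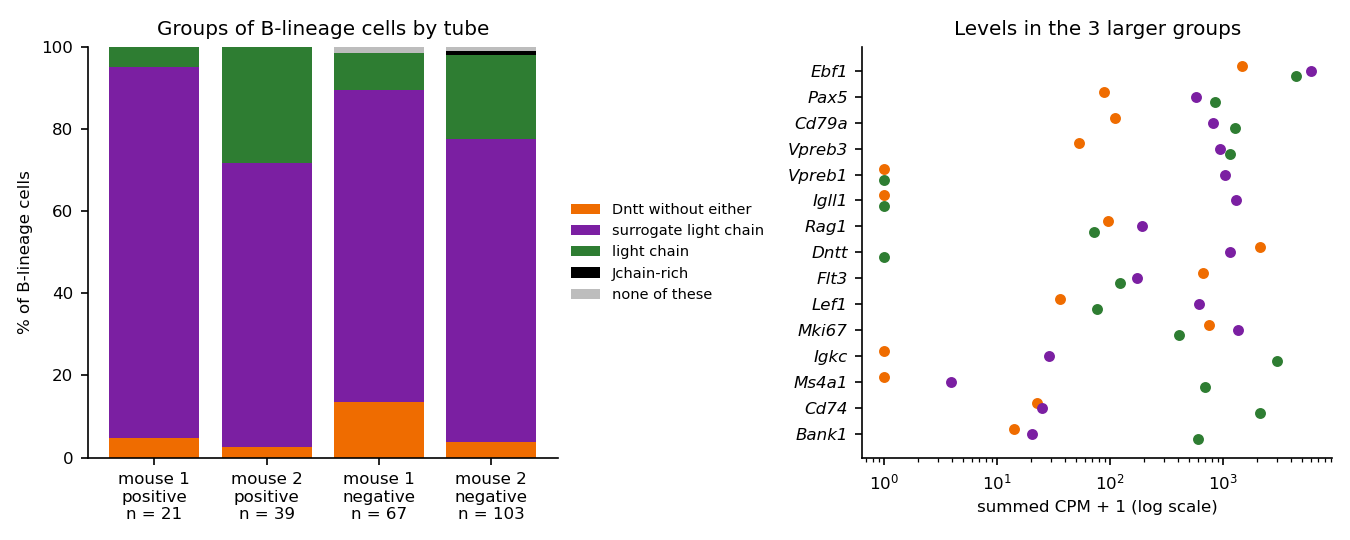
Left, percent of the B-lineage cells of each tube (n cells below each bar) in each group; right, summed CPM plus 1 (log axis) of 15 genes in the 3 larger groups, over all tubes. Light chain cells make up 28.2% and 20.4% of the mouse 2 bars and 4.76% and 8.96% of the mouse 1 bars, and Ms4a1, Cd74 and Bank1 are high in that group.

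The light chain cells were unevenly spread over the mice. They were 11 of 39 members (28.2%, exact 95% interval 15 to 44.9%) in the mouse 2 positive tube and 1 of 21 (4.76%, 0.120 to 23.8%) in the mouse 1 positive tube. In the negative tubes they were 21 of 103 (20.4%, 13.1 to 29.5%) for mouse 2 and 6 of 67 (8.96%, 3.36 to 18.5%) for mouse 1. Intervals here cover counting error only. The surrogate light chain cells as a share of all cells kept were 0.487% and 0.684% in the mouse 1 and mouse 2 positive tubes, against 0.400% and 0.611% in the mouse 1 and mouse 2 negative tubes.

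Whether the tdTomato-positive gate, the question of the sort, held more or fewer B-lineage cells could not be settled with 2 mice. The members were 21 of 3900 cells (0.538%, 0.334 to 0.822%) in the mouse 1 positive tube and 39 of 3945 (0.989%, 0.704 to 1.35%) in the mouse 2 positive tube. They were 67 of 12762 (0.525%, 0.407 to 0.666%) in the mouse 1 negative tube and 103 of 12435 (0.828%, 0.677 to 1.0%) in the mouse 2 negative tube. The gates overlapped. Their means were 0.764% in positive and 0.677% in negative tubes, a difference of 0.0869 percentage points (two-sided exact permutation p = 0.667, where 0.33 is the smallest that 2 against 2 tubes allow). That test did not use the pairing of the tubes by mouse. Within each mouse, positive minus negative was 0.0135 points in mouse 1 and 0.160 points in mouse 2.

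The difference was -0.0355 points when every cell was thinned to 3000 UMIs, with -0.0827 points in mouse 1 and 0.0118 in mouse 2. At unthinned depth it was 0.148 points in GEM-X alone and 0.0113 in v3.1 alone. Mouse 2 had the larger share in both gates, 0.867% over its tubes (0.731 to 1.02%), against 0.528% in mouse 1 (0.424 to 0.650%), and with 1 animal each this compares those 2 mice.

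**Figure D3:**
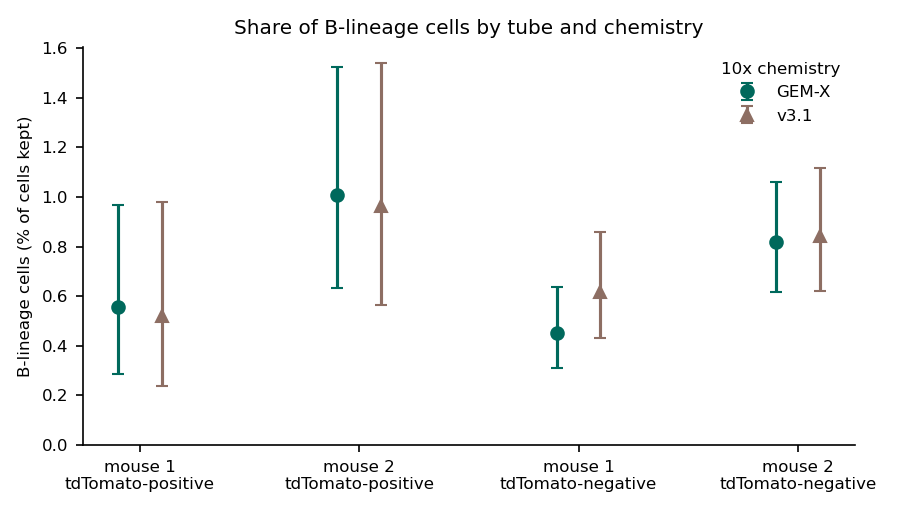
B-lineage cells as a percent of the cells kept in each tube, by chemistry, with exact 95% binomial intervals. Both mouse 2 tubes sit above both mouse 1 tubes in each chemistry, and the positive and negative tubes of a mouse overlap in their intervals.

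Between the gates, few genes differed in B-lineage cells. The edgeR quasi-likelihood test with mouse as a block called 13 of 8048 genes at an adjusted p under 0.05 (0.162%), 2 higher (0.0249%) and 11 lower (0.137%) in tdTomato-positive members. With the same sign in both mice, Arl5c was higher, and the lower genes included Hlf, Prkg1, Mecom, Rab38, Gcnt2, Dach1, Angpt1, Meis1 and Ifitm1. None of the 21 specification factors outside the rule passed. That is near the 0.162% over all genes and says nothing about the list. The fit rests on 4 sums and 1 residual degree of freedom.

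Hlf, a transcription factor of haematopoietic stem cells (chr11:90336536-90390895), had no UMI in the mouse 1 and mouse 2 positive members, against 102 and 49.2 CPM in the mouse 1 and mouse 2 negative members. Set against a floor of 3 counts over the positive members, it was at least 12.2-fold lower in them (edgeR adjusted p = 0.000132). A UMI of Hlf was found in 0 of 21 and 0 of 39 positive members, against 23 of 67 (34.3%) and 15 of 103 (14.6%) negative members. By counting error alone, the exact intervals reach up to 16.1% for the 0 of 21 and 9.03% for the 0 of 39. These intervals do not allow for the lower depth of the positive members, which is given below. Mecom, another factor of stem cells (chr3:29951296-30548008), had 0 and 6.41 CPM in positive members, against 140 and 81.7 CPM in negative members (edgeR adjusted p = 7.04e-05). Meis1, a homeobox factor, had 70.8 and 60.9 CPM in positive members, against 279 and 162 CPM in negative members. Its log2 fold change was -1.68 ± 0.27 (approximate SE). In GEM-X the mouse 1 and mouse 2 negative members had 58.1 and 20.4 CPM of Mecom, against 211 and 151 CPM in v3.1. For Meis1 they had 164 and 130 CPM in GEM-X, against 380 and 199 CPM in v3.1. Hlf, Mecom and Meis1 were the only genes of the stem cell list, out of 10, that passed the filter on low counts. Their count supports nothing further about the list.

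Angpt1, the ligand of the TIE2 receptor (chr15:42424723-42676977), had the smallest p. It had 189 and 92.9 CPM in positive members, against 632 and 494 CPM in negative members. The log2 fold change was -2.09 ± 0.24 (edgeR adjusted p = 5.35e-06). The difference depended on the chemistry, at -0.56 in GEM-X alone, where it did not pass (edgeR adjusted p = 0.83), and -4.86 in v3.1 alone (edgeR adjusted p = 5.60e-06). Prkg1, a cGMP-dependent kinase, had 0 and 0 CPM in positive members, against 43.6 and 46.3 CPM in negative members, at least 7.22-fold lower on the same floor. Ifitm1, an interferon-induced membrane protein, had 53.1 and 76.9 CPM against 252 and 159 CPM. Gcnt2, a glycosyltransferase, had 0 and 12.8 CPM against 124 and 64.0 CPM, and Rab38, a small GTPase, had 0 and 3.20 CPM against 58.2 and 31.5 CPM. Dach1, a transcriptional cofactor, had 29.5 and 16 CPM against 110 and 81.7 CPM, but its log2 fold change was 0.53 in GEM-X alone. With both chemistries summed, in each of these genes both positive tubes lay below both negative tubes.

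Arl5c, an ARF-like GTPase (chr11:97989578-97996181), was higher in positive members, at 201 and 218 CPM against 62.1 and 120 CPM in negative members, which was 1.18 ± 0.24 on the log2 scale (edgeR adjusted p = 0.0233). Agbl1 and Igkc also passed but differed in sign between the mice. Of the lymphoid genes, Flt3 had 236 and 64.1 CPM in positive members, against 344 and 123 CPM in negative members, and did not pass (log2 fold change -0.71, edgeR adjusted p = 0.555). Cd79a, a gene of the rule, had 973 and 1118 CPM in positive members, against 579 and 864 CPM in negative members.

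**Figure D4:**
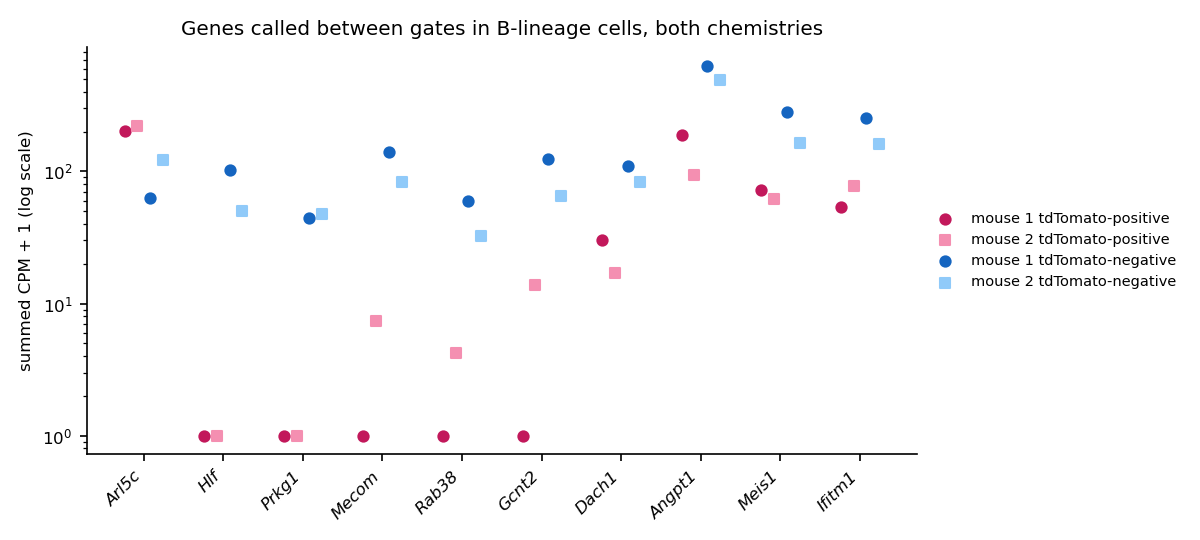
Summed CPM plus 1 (log axis) in the B-lineage cells of each tube for 10 genes called between gates with the same sign in both mice; positive tubes are drawn left of negative tubes. Arl5c is higher in both positive tubes and the other 9 genes are lower, with Hlf and Prkg1 at 0 CPM in both.

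Depth and candidate doublets moved with these genes. The members had a median of 5385 and 3530 UMIs in the mouse 1 and mouse 2 positive tubes, against 14840 and 7144 UMIs in the negative tubes. The 10 stem cell genes summed to 82.6 and 76.9 CPM in positive members, against 581 and 320 CPM in negative members. In cells without Dntt outside the rule they summed to 1857 and 2196 CPM in positive tubes, against 2071 and 2217 CPM in negative tubes, with Vwf and Hoxb5 at 0 in the members. Of the 38 members with Hlf, 12 were among the highest Scrublet scores, against 3 of the 192 without. With those cells left out, Hlf (edgeR adjusted p = 0.00612), Mecom, Angpt1, Gcnt2, Dach1 and Meis1 were still lower. Prkg1, Rab38, Ifitm1, Igkc and Arl5c were no longer called. Among members with 3000 to 20000 UMIs, Hlf, Mecom, Angpt1 and Ifitm1 were still lower, while Meis1, Dach1, Gcnt2, Prkg1, Rab38 and Arl5c were no longer called. The part of cell doublets or free RNA in the result was not tested.

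The number of genes called was small and changed with the fit. Leaving the mice out of the model gave 0 genes by edgeR, with 363 below 0.05 before adjustment. DESeq2 called only Angpt1. GEM-X alone gave 0 genes (341 unadjusted) and v3.1 alone gave 8, of which 7 were among the 13. Fits with 1 tube left out had no block and took the lone tube to vary like the other gate. Of these, edgeR called 34 genes without mouse 1 positive, 0 without mouse 2 positive (612 unadjusted), 2 without mouse 1 negative and 0 without mouse 2 negative (314 unadjusted). None of the 2 was among the 13, and the 13 shared 12 with the 34.

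The second question of the study was how the chemistries compare. B-lineage cells were 0.708 ± 0.253% of GEM-X cells and 0.736 ± 0.204% of v3.1 cells (SD over 4 tubes). GEM-X minus v3.1 was -0.0278 percentage points, with GEM-X higher in 2 of 4 tubes (two-sided exact paired permutation p = 0.875, where 0.13 is the smallest possible, rounded). After thinning to 3000 UMIs the difference was 0.0234 points. With at most 5% mitochondrial UMIs, GEM-X was higher in 3 of 4 tubes, though the mean difference was -0.0163 points. It was higher in 2 tubes with at least 4 of the 7 genes (-0.0145 points). Without light chain and Jchain-rich cells it was higher in 1 tube (-0.0332 points). GEM-X was lower in all 4 tubes, at the smallest possible p of 0.13, when cells with 500 genes were admitted (-0.103 points), when the top hashtag had to be 10 times the next (-0.0520 points), and without the highest Scrublet scores (-0.0492 points).

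Between the chemistries, 778 of 6799 genes differed in B-lineage cells (edgeR, tube as a block, adjusted p under 0.05, 11.4%), 421 higher (6.19%) and 357 lower (5.25%) in GEM-X. Of these, 619 had the same sign in all 4 tubes. The Cell Ranger version differed with the chemistry, and each chemistry was 1 library, so the assay, the library and the counting cannot be told apart. The p-values rest on tubes within those libraries and do not measure the spread between libraries. Genes of recombination and of the G2 and M phases were among those higher in GEM-X. Of the V(D)J list, 3 of 11 tested genes were higher and none was lower, and the share of all genes higher was 6.19%. Of the G2 and M list, 6 of 19 were higher and none was lower. Its median log2 fold change was 0.24, beside -0.02 over all genes. Of the G1/S list, 1 of 15 was higher and 1 was lower, with a median of -0.12.

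Rag1 had 332, 292, 249 and 276 CPM in GEM-X, against 138, 68.2, 63.7 and 54.5 CPM in v3.1, in the order mouse 1 positive, mouse 2 positive, mouse 1 negative and mouse 2 negative. The log2 fold change was 2.01 ± 0.21 (edgeR adjusted p = 6.75e-11), and no v3.1 tube reached a GEM-X tube. Rag2 differed by 0.93 ± 0.22 (edgeR adjusted p = 0.00346) and Ighm by 0.77 ± 0.15 (edgeR adjusted p = 0.000388). Mki67 had 1765, 1670, 1665 and 2079 CPM in GEM-X, against 621, 657, 455 and 575 CPM in v3.1. Its log2 fold change was 1.66 ± 0.16. Myb, a factor of progenitors, averaged higher in GEM-X by 0.77 ± 0.16 on the log2 scale.

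The genes of the rule chose the members in both chemistries, so their differences are given with no test. The log2 difference, GEM-X minus v3.1, was -0.55 for Ebf1 and -0.60 for Cd79a. Cd79a had 654, 961, 513 and 706 CPM in GEM-X, against 1588, 1265, 637 and 1042 CPM in v3.1. For the other 5 it lay between -0.11 and 0.07. Outside the rule, Bcl2l1 (log2 difference -1.17 ± 0.29) and Mzb1, a chaperone of IgM assembly (-0.58 ± 0.17), were lower in GEM-X (edgeR adjusted p = 0.0045 and 0.0205).

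By size of fold change, the genes furthest higher in GEM-X were Hist1h3b, Hist1h2ai, Hist1h2ab, Il31ra, Hist1h4c, Hist1h3f, Hist1h2ag, Hist1h4h, Hist1h3c and Lars2. Replication-dependent histone genes have near-identical copies, so counts of single histone genes are uncertain. Hist1h3b had 112 UMIs in GEM-X and none in v3.1, at least 36.2-fold higher on a floor of 3 counts over the v3.1 members. Il31ra, a cytokine receptor subunit, had 71.7, 159, 118 and 85.3 CPM in GEM-X, against 0, 0, 3.64 and 2.10 CPM in v3.1. Furthest lower in GEM-X were Oprm1, Ifi30, Clock, Cdk2ap1, Neat1, Med12l, Fam241a, Gpsm3, Pxmp4 and Nrg2. Cdk2ap1, an inhibitor of a cyclin-dependent kinase, had 8.96, 33.1, 31.1 and 35.2 CPM in GEM-X, against 155, 130, 104 and 96.5 CPM in v3.1.

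**Figure D5:**
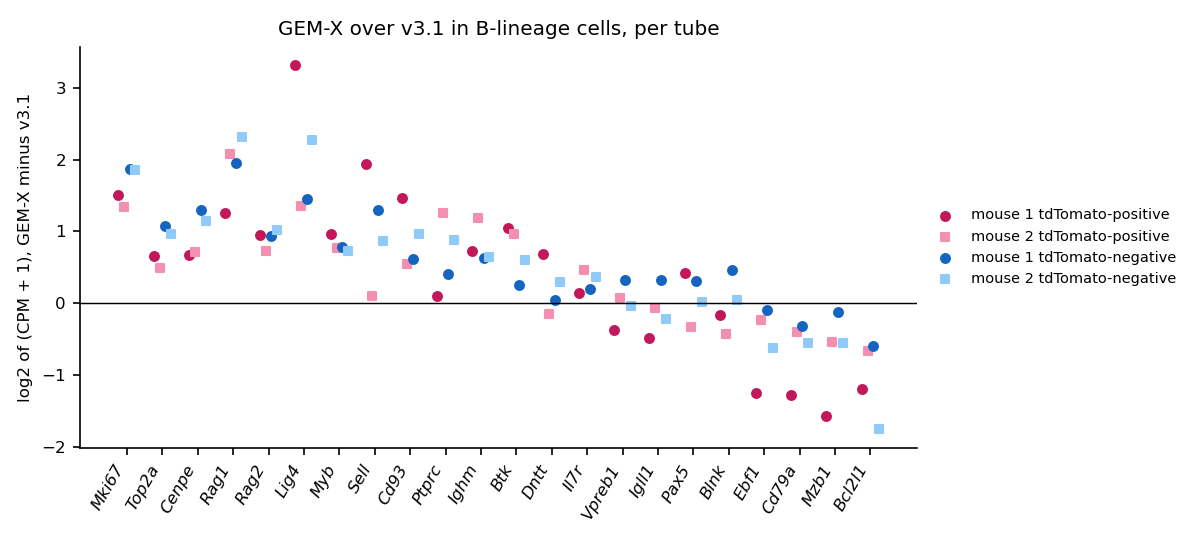
Log2 difference in CPM plus 1, GEM-X minus v3.1, in the B-lineage cells of each tube for 22 genes of the gene lists; the line marks no difference. Mki67, Rag1, Rag2 and Myb are above the line in all 4 tubes, Cd79a and Ebf1 are below it in all 4, and Vpreb1, Igll1, Pax5 and Blnk lie on both sides.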

How the data were processed

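The authors deposited UMI counts, not normalized, for 2 matrices. Cell Ranger 8.0.1 made the GEM-X matrix and version 7.1.0 the v3.1 matrix, per the file headers. The submitters' processing notes give version 7.0.0, and mm10. Which matrix is which chemistry was read from matrix names and versions, since the labels do not state it. A deposited text pairs the 4 hashtags with mouse and gate. The labels also describe the sort as 1 positive and 1 negative tube, so treating the hashtags as separate mice rests on the deposited text.

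Cells had at least 1000 genes, at most 10% mitochondrial UMIs, and a top hashtag of at least 10 UMIs and 3 times the next. Counts were summed per tube over members and tested with edgeR 4.0.16 (TMM, filterByExpr, Benjamini-Hochberg over all genes), with mouse as a block between gates, since both tubes of a mouse come from 1 animal, and tube as a block between chemistries. The library sizes were 169538 to 1030975 UMIs per tube. DESeq2 1.42.0 was an alternative. On simulated data with 200 changed genes, the gate test recovered 15% at a log2 change of 1 and 90.5% at 3. The chemistry test recovered 53% and 88.5%. False calls numbered 0 and 8 in the gate test and 1 and 5 in the chemistry test. The simulated counts had the same dispersion for all genes, no difference in expression between mice and no genes of low count. Recovery in the real counts may therefore be lower. Shares have exact Clopper-Pearson 95% intervals. Positions are from GENCODE M21, which held 99.6% of the gene IDs.

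The members and the gene lists were chosen with earlier results of these data known. Genes were named between gates and chemistries as the 10 with the largest fold change in each direction, with the same sign in every mouse or tube and at least 10 CPM. Against the Dntt and Il7r cells up to 15 in each direction with at least 50 CPM in the higher group were named. Gene models without a name, ribosomal protein genes and V segments were left out of that choice. Some genes that met it are not reported here.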

Additional observations from a re-analysis of the deposited data

Results flagged for a closer look

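Agbl1 and Igkc passed the edgeR test between gates but moved in opposite directions in the 2 mice, and that difference was not tested. Agbl1 had a log2 ratio of positive to negative of -0.18 in mouse 1 and 2.33 in mouse 2. For Igkc the ratios were 0.97 in mouse 1 and -3.79 in mouse 2, where 1 cell rich in Jchain held 6552 UMIs. The share of B-lineage cells in v3.1 also differed in sign, with positive minus negative at -0.0994 percentage points in mouse 1 and 0.122 in mouse 2, also not tested.

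A tube stood apart from the other 3 in 5 of 56 groups of 4 tubes examined, and chance gives about 1 in 20. The gap to the nearest tube took 0.844 of the range for Cdk2ap1 in GEM-X, 0.881 for Myb in GEM-X and 0.836 for Rag1 in v3.1. It took 1 for Hist1h2ai and 1 for Hist1h2ag in v3.1, each with UMIs in a single tube.

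Barcodes that met the gene rule but carried no dominant hashtag numbered 15 in GEM-X (10.9% of all barcodes meeting it) and 24 in v3.1 (18.2%). Over all filtered barcodes 9.17% and 11.8% failed the hashtag rule.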

How the results depend on the processing

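No p below 0.05 was possible for the shares, so stability cannot be read from the tests. Positive minus negative was -0.0355 points after thinning to 3000 UMIs, was 0.177 with cells of 500 genes admitted, 0.149 with a top hashtag 10 times the next and 0.0466 without light chain and Jchain-rich cells. It ranged from -0.138 to 0.312 points with 1 tube left out, which also unbalances the mice, and with mice as a replicate block was the same 0.0869 points. GEM-X minus v3.1 was 0.0234 points after thinning and ranged from -0.0517 to 0.0184 with 1 tube left out. Between gates edgeR called 13 genes in all, 0 with no replicate block, 0 with GEM-X alone, 8 with v3.1 alone, 25 with no filter on low counts, 8 with the highest Scrublet scores left out, 1 with DESeq2, and 0 to 34 with 1 tube left out. Between chemistries it called 778 genes, 484 with no replicate block, 183 with DESeq2, and 132 to 966 with 1 tube left out, the low values being 132 without mouse 2 negative and 236 without mouse 1 negative. The fold change changed sign for Dach1 in GEM-X alone (0.53), for Igkc in GEM-X alone (0.34) and without mouse 2 negative (2.11, range -4.50 to 2.11 with 1 tube left out), and for Agbl1 without mouse 2 positive (-2.24, range -2.24 to 4.40). For Flt3, which did not pass, it was 0.01 without mouse 2 positive and 0.10 without mouse 1 negative (range -1.85 to 0.10). The causes were not tested. Leaving out the light chain and Jchain-rich cells, taking surrogate light chain cells alone, admitting cells with 500 genes, restricting members to 3000 to 20000 UMIs and the 5% Scrublet threshold were chosen after seeing the data. The depth of 21 to 103 members per tube limits detection of low genes.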
